A study of Caenorhabditis elegans with 2 samples.

Results

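The regions described here are the coding exon regions of the autosomes that lie outside promoters, in a ChIP-seq profile of the nematode *Caenorhabditis elegans*. They are the regions of the pooled peak list, on genome build ce11, whose summit (the position of highest signal) fell in annotated coding sequence of a protein-coding gene and not between 1000 bp upstream and 200 bp downstream of any protein-coding gene's 5' end. Of 19644 pooled regions, 15948 lay on the 5 autosomes and 4214 of those met the rule, after 3 autosomal regions inside *ceh-22* itself were left out. The members were chosen from the pooled list by summit position, without use of their signal values, and with earlier results of these data known. They fell in 3287 genes.

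The profile came from 1 group of 2 biological replicates of whole late embryos, mixed in sex, of strain OP389, which carries *unc-119(tm4063)* on chromosome III and the transgene wgIs389. The transgene supplies CEH-22 with GFP and FLAG at its C-terminus, and the antibody is given only as *ceh-22*. The labels give no untagged strain, second stage or second genotype, so there is no contrast of conditions, and the control they name was not analysed here. Each replicate had its own list of 30000 regions, and the 2 replicates together gave the pooled list and a much shorter thresholded list, which was identical to the top of the pooled list by signal value and whose lowest value there was 32.2. The strongest regions of a replicate, as many as the thresholded list has peaks, are called its leading regions.

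CEH-22 belongs to the NK-2 class of homeodomain transcription factors, and in the pharynx, through which the worm feeds, it is known for switching on genes of muscle contraction. Most sequences through which worm transcription factors are known to act lie just upstream of genes or in their introns. Coding exons carry the codons of the protein instead, and in worms they are richer in G and C than the surrounding DNA. ChIP-seq reads can pile up at places other than a factor's own sites, and the lists used here were made to hold both peaks and background, so a place in the pooled list alone does not make a region a binding site.

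Sequences around 4 summits are printed because the results return to them. They are the only coding exon region of the thresholded list, in *pot-3* (chrIII:13780247-13780590), the member next in strength, in *mep-1* (chrIV:11525369-11525712), and 2 of the 3 regions with an NK-2 site among the 50 strongest members, in *sel-11* (chrV:11767698-11768041) and *tim-1* (chrIII:12245330-12245673). Each line holds the 201 bases centred on the summit, from the plus strand of the RefSeq sequence of WBcel235, which is ce11. Capitals mark an NK-2 site, searched as TCAAGTG or TTAAGTG on both strands. In *tim-1* the site lies on the minus strand, so its complement is in capitals.
pot-3: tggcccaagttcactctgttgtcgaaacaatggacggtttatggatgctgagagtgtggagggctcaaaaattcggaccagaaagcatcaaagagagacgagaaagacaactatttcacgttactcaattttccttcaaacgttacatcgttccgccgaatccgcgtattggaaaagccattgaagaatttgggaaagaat
mep-1: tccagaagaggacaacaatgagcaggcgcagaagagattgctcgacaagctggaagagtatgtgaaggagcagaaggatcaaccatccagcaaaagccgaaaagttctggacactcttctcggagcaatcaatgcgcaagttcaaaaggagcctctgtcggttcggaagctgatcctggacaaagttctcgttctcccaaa
sel-11: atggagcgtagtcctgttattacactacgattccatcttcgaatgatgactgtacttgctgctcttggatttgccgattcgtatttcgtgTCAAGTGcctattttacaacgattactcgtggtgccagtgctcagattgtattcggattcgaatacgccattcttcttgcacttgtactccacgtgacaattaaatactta
tim-1: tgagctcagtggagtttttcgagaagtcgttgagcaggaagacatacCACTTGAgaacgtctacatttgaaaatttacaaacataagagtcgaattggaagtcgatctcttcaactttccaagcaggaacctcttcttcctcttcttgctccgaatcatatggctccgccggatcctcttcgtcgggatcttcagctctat
The *pot-3* and *mep-1* windows hold neither form of the site. In *sel-11* the site (V, 11767860 to 11767866) is centred 7 bp before the summit, and in *tim-1* it (III, 12245449 to 12245455) is 50 bp before it in genome order. A match of these letters is a description and does not show that the factor binds there.

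Coding exon regions were common in the pooled list and almost missing from its top. They made up 26.4% of the autosomal pooled regions, close to the share of intron regions (27.4%) and promoter regions (24.5%), and above intergenic regions (18.6%) and untranslated exon regions (3.01%). A single member, in *pot-3*, was in the thresholded list, where it stood among 206 autosomal peaks. That is 0.0237% of the members (exact 95% binomial interval 0.000601 to 0.132, counting over regions only), while 1.29% of all autosomal pooled regions were in the thresholded list. The same share was 2.12% for promoter regions (83 peaks), 2.09% for intergenic regions (62), 1.26% for intron regions (55) and 0.625% for untranslated exon regions (3).

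The scarcity was limited to high ranks. Coding exon regions held 0.485% of the autosomal peaks in the thresholded list, which ends where rank 286 begins. Their share was 7.19% at ranks 286 to 500 and 19.3% at ranks 501 to 1000, and it reached 25.3% at ranks 1001 to 2000. It was 28.6% at ranks 2001 to 5000, 27.7% at ranks 5001 to 10000 and 26.6% below that. Coding sequence outside promoter windows took 20.6% of the autosomal bases, so the members were under that share down to rank 1000 and over it from there on. The 90 members among the 1000 strongest pooled regions were 2.14% of all members, beside 4.83% of all autosomal pooled regions.

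**Figure D1:**
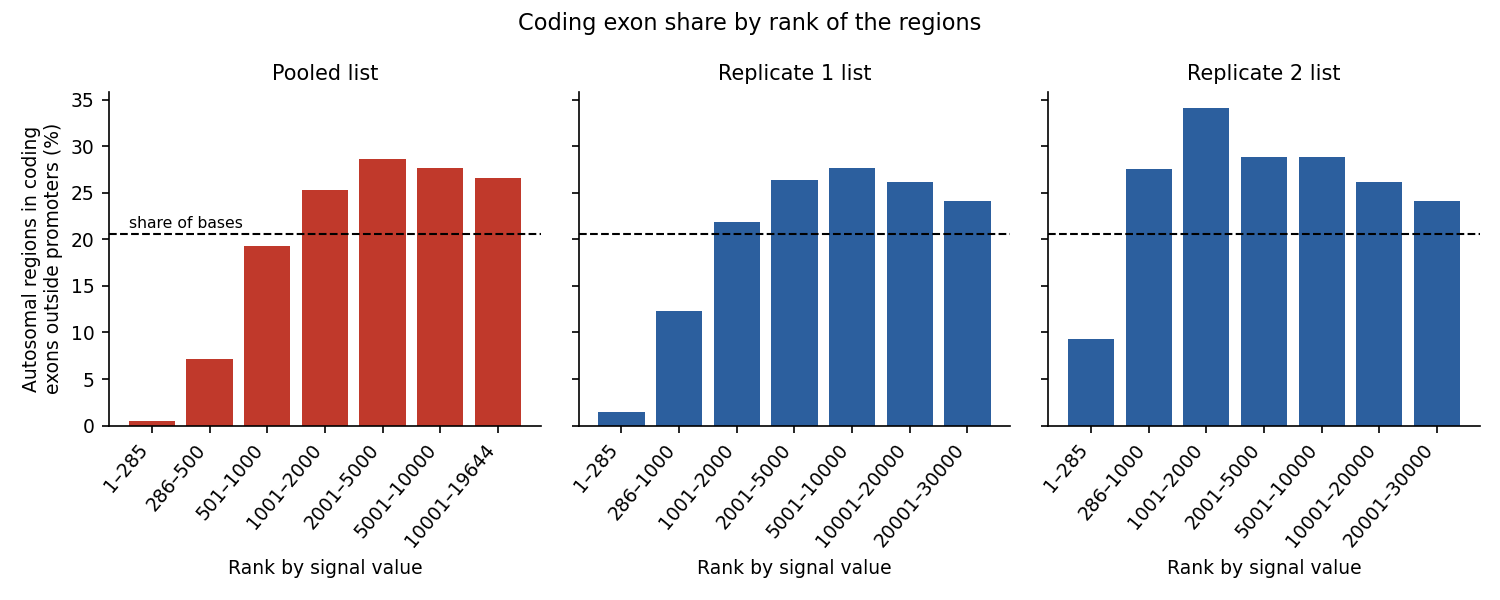
Share of autosomal regions that lie in coding exons outside promoters (%), by rank of the signal value, for the pooled list and for the list of each replicate; the dashed line is the 20.6% of autosomal bases in that class. In the pooled list the share rises from 0.485% in the first bar, the thresholded peaks, to 28.6% at ranks 2001 to 5000, and in the leading regions of the replicates it is 1.44% in replicate 1 and 9.30% in replicate 2.

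The typical coding exon region was as strong as the typical region of any other class. The signal value is the authors' score for each region, on a scale not stated, and it ranks regions within a list only. Its median was 12.0 in the members, with quartiles of 10.4 and 14.4, and 12.0 or 12.1 in each other class. The median rank was 9958 for members and from 9610 (promoter regions) to 10019 (untranslated exon regions) for the others. The classes parted in the upper tail: the 95th percentile was 19.2 in coding exons against 23.5 in promoter and intergenic regions, 21.6 in introns and 19.0 in untranslated exons, and the highest value was 37.9 against 154 in promoter regions.

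Per length, coding exons were the class with most regions and with fewest strong ones. The 17.0 Mb of coding sequence outside promoter windows held 248 regions per Mb, beside 213 in promoter windows, 199 in untranslated exons, 172 in introns and 153 between genes. Among the 1000 strongest the order turned, with 5.30 regions per Mb in coding exons against 6.63 in untranslated exons, 8.32 in introns, 10.1 between genes and 14.0 in promoter windows. In the thresholded list coding exons held 0.0589 peaks per Mb and promoter windows 4.51. No test was made of these densities, and read mapping and depth along the genome were not analysed here.

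**Figure D2:**
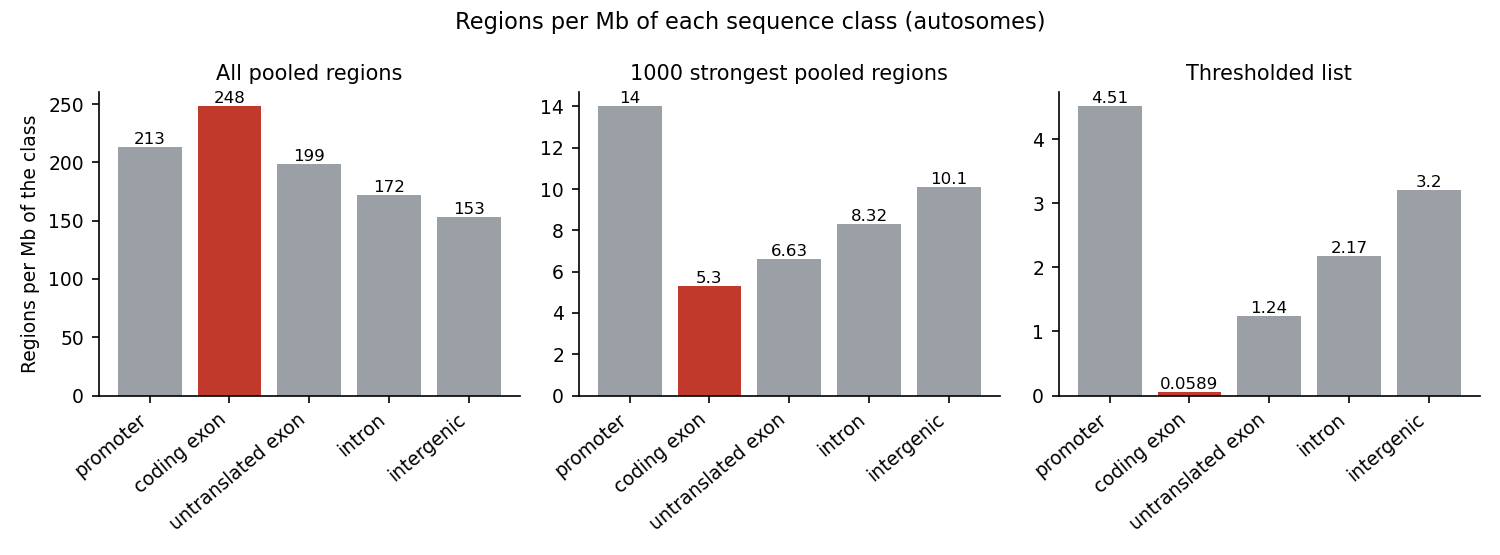
Regions per Mb of each autosomal sequence class, for all pooled regions, the 1000 strongest and the thresholded list, each panel on its own axis from 0. Coding exons (red) are highest of the 5 classes at 248 per Mb over all regions and lowest in both other panels, at 5.30 and 0.0589 per Mb.

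On each of the 5 autosomes coding exons had the most regions per Mb of the 5 classes. Among the 1000 strongest they had the fewest per Mb on I, IV and V, and on II and III only untranslated exons had fewer. Members numbered from 735 on IV to 971 on V, at 222 (V) to 270 (II) per Mb of such coding sequence, and 13 to 25 per autosome were among the 1000 strongest. The best rank was 170 on III, 288 on IV, 369 on I, 464 on II and 490 on V. The X chromosome is outside the rule. By the same rule it held 765 coding exon regions at 245 per Mb, of which 1 was in the thresholded list, at rank 20.

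The one thresholded member lay at the edge of the promoter window and near a chromosome end. *pot-3* encodes one of the worm's relatives of POT1, the protein that binds single-stranded telomere ends. Its region had a pooled signal of 37.9 (rank 170) and a summit at 13780419 on III, in exon 1 of 3 of the gene (13780215 to 13781133, plus strand). The summit was 204 bp from the gene's 5' end, where the promoter window ends at 200 bp, and 3382 bp from the right end of the chromosome.

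In replicate 2 the *pot-3* region was the strongest coding exon region of its list, with a signal of 32.3 (rank 69). Replicate 1 had no summit within 200 bp of the pooled summit. Its nearest lay 204 bp downstream in exon 2, with a signal of 10.9 (rank 750), at the summit of a second *pot-3* member (chrIII:13780451-13780794) of pooled signal 24.5 and rank 662. Replicate 2 had a single region here, and the pooled list had 2 that overlap. With a promoter window that reached 2000 bp upstream and 500 bp downstream, the region fell inside it, and 0 of 2960 remaining coding exon regions were in the thresholded list.

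A few thresholded coding summits lay on the other side of that edge. Promoter windows took 923 summits in coding sequence away from the class, of which 4 were in the thresholded list (0.433%) and 20 among the 1000 strongest (2.17%). Of those, 212 lay over 100 and up to 200 bp downstream of their own gene's 5' end, with 2 thresholded peaks and a best rank of 133 (signal 42.0). The members just outside, over 200 and up to 300 bp downstream, numbered 131 with 1 thresholded peak, that in *pot-3*, and 4 among the 1000 strongest.

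The member next in strength, in *mep-1*, missed the thresholded list narrowly. MEP-1 is a zinc finger protein that works with a chromatin remodelling factor to keep germline genes off in somatic cells. Its region had a pooled signal of 32.1 (rank 288), where the lowest value in the thresholded list was 32.2. In replicate 2 it had a signal of 28.0 (rank 106) and in replicate 1 a signal of 5.07 (rank 7859). It lay in exon 3 of 6, wholly within 943 bp of coding sequence.

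The next members were likewise high in replicate 2 and further down in replicate 1. The region in *let-526*, which encodes a subunit of a SWI/SNF chromatin remodelling complex, had a pooled signal of 29.2 (rank 369) and a replicate 2 signal of 27.2 (rank 115), with no replicate 1 summit within 200 bp. *daf-4*, the type II receptor for BMP-like ligands, had 28.7 (rank 386), with 8.82 in replicate 1 (rank 1385) and 18.6 in replicate 2 (rank 539). Its summit lay in an exon of only 63 coding bases, and another transcript of the gene has an intron there.

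The region in *rrp-8*, named for a yeast methyltransferase of ribosomal RNA, had a pooled signal of 28.2 with 8.65 in replicate 1 (rank 1471) and 20.7 in replicate 2 (rank 326). Its summit was 218 bp from the 5' end of the gene. *pat-12*, a component of the structures that attach muscle to the epidermis, had 28.1 with 7.06 in replicate 1 (rank 2858) and 17.9 in replicate 2 (rank 657). None of the members from *let-526* to *pat-12* passed the threshold.

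Over the 20 strongest members, the genes had varied roles. *mnk-1*, a kinase that acts on a translation initiation factor, had a pooled signal of 27.2, and its summit lay 190 bp from a short non-coding RNA gene. *npp-9* (27.1) encodes a nucleoporin. *unc-54* (27.1) encodes the main myosin heavy chain of body wall muscle and *unc-120* (27.0) a muscle transcription factor related to SRF. *hsp-1* (26.4) and *dnj-20* (26.6) encode chaperones, *pezo-1* (25.9) a mechanically gated channel, *ets-6* (25.7) an ETS family transcription factor and *col-97* (25.7) a cuticle collagen. The *hsp-1* window was the only one of the 20 with a further copy in the genome (90% identity over 100 bp or more).

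The other members of the 20 were *F46C5.9* (26.8), *R02F11.3* (26.7), *ZC434.4* (26.2), *H39E23.2* (26.0) and *R10F2.6* (25.9). Of the 20, all had a replicate 2 summit within 200 bp, at signals of 14.6 to 32.3, and 15 had a replicate 1 summit, at 4.41 to 14.4. *R02F11.3* stood apart with 14.4 in replicate 1 (rank 316), the highest replicate 1 rank of the 20, and 14.6 in replicate 2 (rank 1788). The median rank of the matched regions was 2695 in replicate 1 and 376 in replicate 2.

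**Figure D3:**
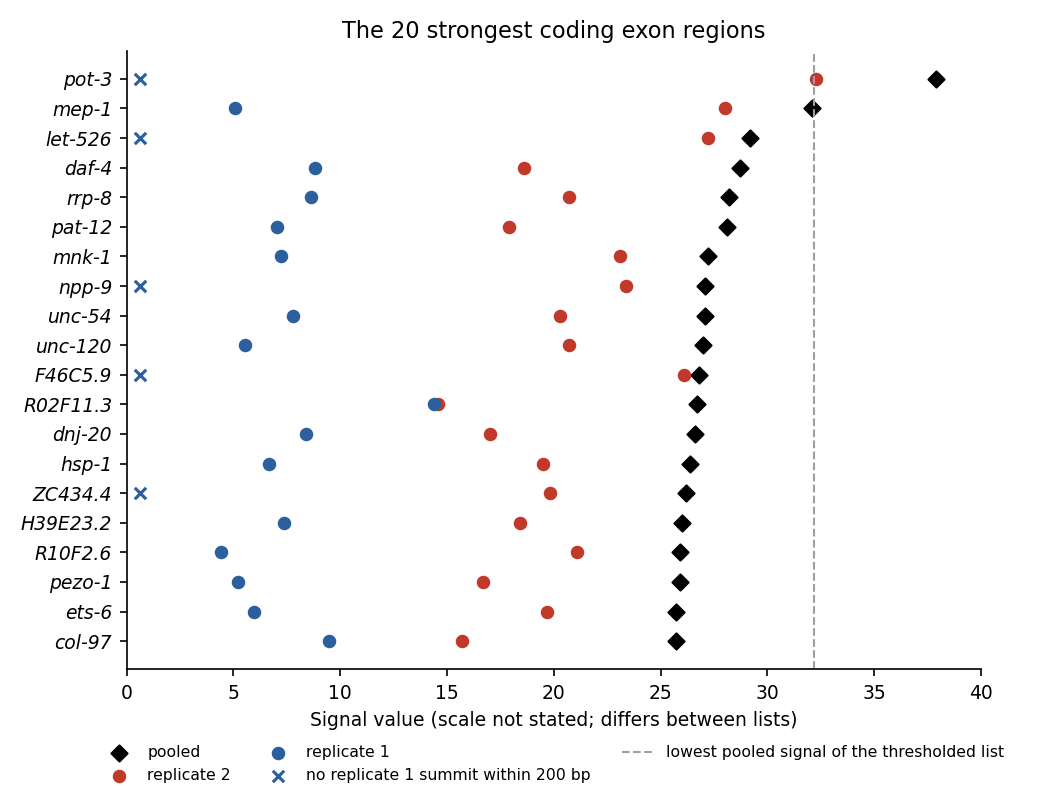
Signal values of the 20 strongest coding exon regions, each named by its gene, in the pooled list (diamonds), replicate 2 (red) and replicate 1 (blue), with crosses where replicate 1 had no summit within 200 bp; the dashed line marks 32.2, the lowest pooled signal of the thresholded list. Only *pot-3* (37.9) is past the line, and 5 of the 20 have a cross; signals of different lists are not on 1 scale.

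The replicates differed in how far coding exon regions reached into their strongest regions. By the same rule the replicate 1 list held 6069 such regions and the replicate 2 list 6408, of 24209 and 24365 autosomal regions. Among the leading regions of replicate 1, coding exons held 3 of 209 autosomal ones (1.44%), and among those of replicate 2 they held 20 of 215 (9.30%). Read as shares of the class, this was 0.0494% of coding exon regions in replicate 1 beside 0.863% of all its autosomal regions, and 0.312% beside 0.882% in replicate 2. Among the 1000 strongest the shares were 9.34% (71 of 760) and 22.7% (185 of 815). At ranks 1001 to 2000 coding exons held 21.9% in replicate 1 and 34.1% in replicate 2.

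In both replicates the class was scarcer among the leading regions than lower in the list. The 3 regions of replicate 1 lay in *dhc-4*, a dynein heavy chain gene (signal 18.6, rank 151), *tln-1*, the talin gene (15.5, rank 260), and *pals-26* (15.3, rank 273), of a gene family tied to the response to intracellular pathogens. In replicate 2 the matching regions ranked 2212 (13.9), 29128 (6.14) and 21823 (7.11). The pooled summit in *dhc-4* fell in an intron, so it is no member. The pooled ranks of the *tln-1* and *pals-26* members were 781 (signal 23.3) and 1030 (signal 21.7).

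The 20 regions of replicate 2 shared none of their places with the leading regions of replicate 1. After *pot-3*, *mep-1* and *let-526*, its next were *F46C5.9* (26.1, rank 133) and *cutl-10*, a cuticlin-like gene (25.8, rank 143). Of the 20, only 5 had a replicate 1 summit within 200 bp anywhere in that list, in *pot-3*, *mep-1*, *cdh-4*, *mnk-1* and *tim-1*, at replicate 1 ranks of 750, 7859, 4488, 2695 and 15578. None was among the leading regions of replicate 1. The *pot-3* region counts here because the replicate 2 summit lay nearer to the replicate 1 summit than the pooled one did. Of promoter regions among the leading ones of replicate 2, 66 of 73 had a replicate 1 summit and 32 had a leading one. The counts were 50 and 20 of 56 intron regions, 47 and 18 of 58 intergenic regions, and 6 and 1 of 6 untranslated exon regions.

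**Figure D4:**
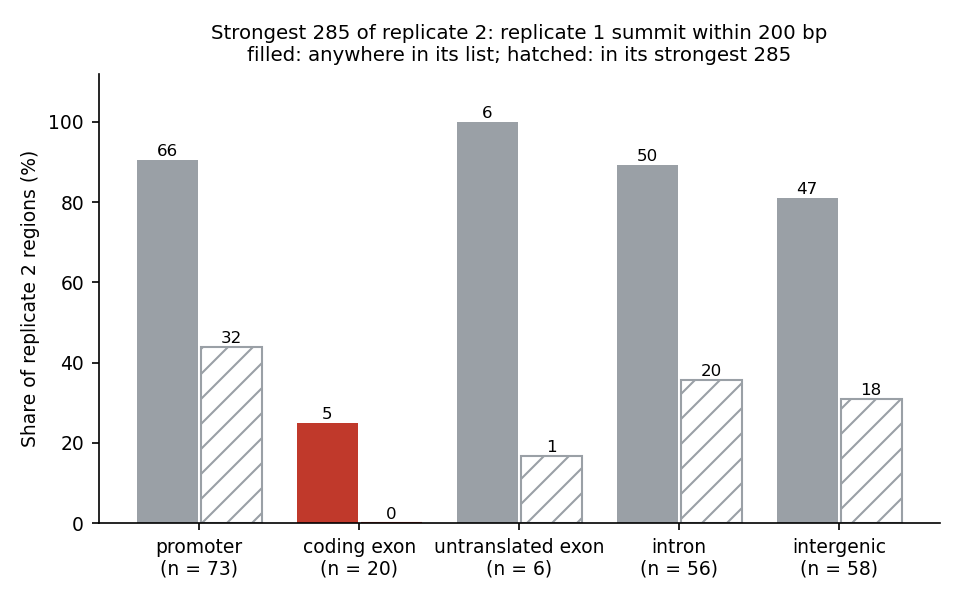
Autosomal leading regions of replicate 2, by class, and the share (%) with a replicate 1 summit within 200 bp anywhere in its list (filled) or among its leading regions (hatched), with counts above the bars. Coding exons (red) stand at 5 and 0 of 20, and the promoter, intron and intergenic classes at 81.0 to 90.4% filled and 31.0 to 43.8% hatched.

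Over all members, 44.8% (1888) had a replicate 1 summit within 200 bp, 82.0% (3456) had a replicate 2 summit, 30.8% (1296) had both and 3.94% (166) had neither. Both replicates were matched for 35.1% of all autosomal pooled regions. The replicate 1 share was the lowest of the 5 classes, where promoter regions had 53.3%, intergenic 52.9%, intron 50.1% and untranslated exon regions 46.7%. The replicate 2 share was 80.6 to 82.2% in every class. The pooled list was made from both replicates, so neither share is independent of it.

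Within rank ranges the share of members with a replicate 1 summit was also lower than that of the other autosomal regions. It was 75.0% against 94.2% at ranks 286 to 500, 77.9% against 88.2% at ranks 501 to 1000 and 67.0% against 81.1% at ranks 1001 to 2000. It was 57.7% against 65.6% at ranks 2001 to 5000, 43.4% against 49.7% at ranks 5001 to 10000, and 37.7% against 40.6% below. For replicate 2 the members stood at 100, 100 and 97.6% in the first 3 of these ranges, and the others at 98.7, 98.1 and 94.9%.

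Where both replicates had a summit, their signals in coding exons were nearly unrelated. Spearman's rho between the replicate signals was -0.0219 over the 1296 members with both, and 0.124 to 0.267 in the other classes. The members come from a list made from both replicates, so this value is not independent of the selection. With the replicate lists matched to each other and the pooled list left out, rho was 0.0530 over 1357 coding exon regions, against 0.246 for promoter regions (1563), 0.248 for intron regions (1622), 0.279 for untranslated exon regions (174) and 0.292 for intergenic regions (1204). These are descriptions across regions of the same 2 libraries, without a test. The pooled signal of members followed that of replicate 2 (rho 0.686) more than that of replicate 1 (rho 0.334). This order held in every class, with 0.658 to 0.737 for replicate 2 and 0.496 to 0.581 for replicate 1 in the others. The members had the lowest replicate 1 value.

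**Figure D5:**
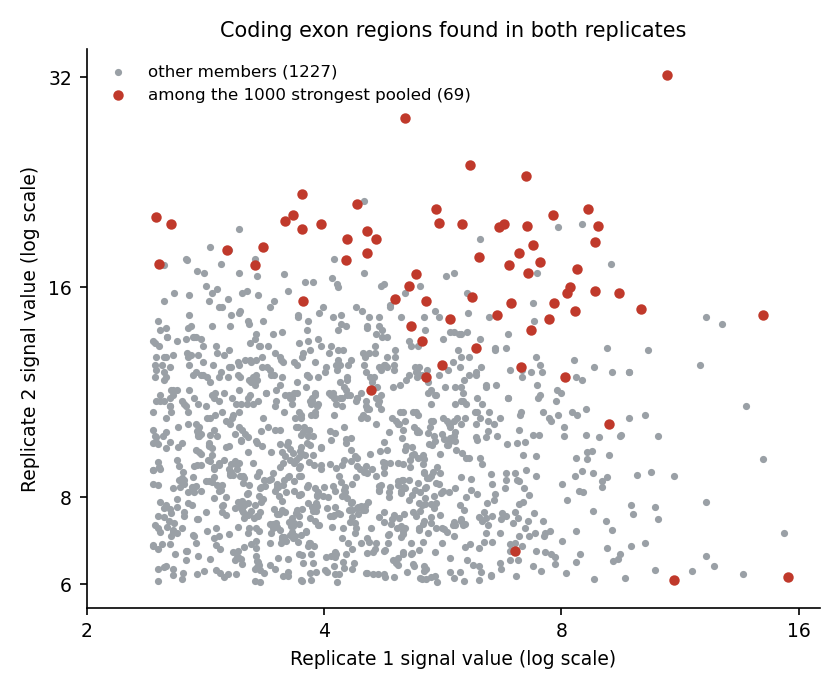
Signal values of the 1296 coding exon regions with a summit in both replicates, replicate 1 against replicate 2, both on log scales; red points are the 69 among the 1000 strongest pooled regions. The cloud shows no slope (Spearman's rho -0.0219), and the red points lie mostly toward high replicate 2 values.

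Within genes the members lay much as coding sequence does. Of the 4214 summits, 83.7% (3528) were in internal coding exons, 4.08% (172) in first exons and 12.7% (536) in last exons of the transcript used, with single-exon transcripts counted as both first and last. Coding bases outside promoter windows were 82.2% internal, 3.90% first and 13.9% last. The coding-base shares leave no room for such double counting, so the first and last shares are not strictly alike between members and bases. The median member was 1871 bp from the gene's 5' end and 1645 bp from its 3' end. In the first 10% of the gene's span lay 3.49% of members and 3.82% of such coding bases, and in the last 10% lay 7.78% and 9.49%. Between 40 and 50% of the span the shares were 12.1% and 11.2%.

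Longer coding exons held more regions per length. Exons of up to 150 coding bases held 186 regions per Mb, those of 151 to 300 held 219, those of 301 to 600 held 269 and longer ones 329. Exons over 600 bases took 20.8% of the coding bases, 27.6% of the members and 41.1% (37) of the 90 members among the 1000 strongest. The median exon was 344 bp for members and 284 bp for coding bases. The regions were 344 bp wide in the pooled list, and 25.0% (1054) of the members were coding over their whole width, as were 35.6% (32) of the 90 strongest.

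Part of the class is coding in some transcripts only. At 5.93% of members (250) another transcript had an intron at the summit, beside 4.97% of coding bases, and this was so for 14.4% (13) of the 90 strongest. A transcript start other than the gene's outer 5' end placed 5.62% (237) of members in a promoter window, against 5.58% of coding bases. Another thresholded summit lay within 1000 bp of 12 members (0.285%), the strongest of them the second *pot-3* member. The same share over all autosomal regions is not given here, so this count is not read as low or high.

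The members were richer in G and C than coding sequence at large, as the regions of other classes were for theirs. Median GC content in the 201-bp window was 41.8% for members and 39.8% for windows at every 200th coding base. It was 38.8% against 34.8% in promoter windows, 38.8% against 33.3% in introns and 38.8% against 33.8% between genes. Signal rose with GC less in the members (rho 0.143) than in untranslated exon (0.182), promoter (0.276), intron (0.284) or intergenic regions (0.316). These values are descriptions across regions that share libraries. At ranks 286 to 500 members had a median GC of 45.3% and the other autosomal regions 48.3%. From rank 501 down it was higher in the members, at 41.3% against 36.8% in the last range.

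The share of strong members was higher where G and C were richer. Of those with up to 38.3% GC, 11 (0.947%) were among the 1000 strongest, and of those with 46.8% or more, 37 (3.77%). With the members in 4 groups of rising GC, a replicate 1 summit was found for 40.1, 48.8, 45.2 and 46.0%, and a replicate 2 summit for 80.8, 82.0, 83.2 and 82.2%. The part of base composition in the ranks was not tested.

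The share of members with an NK-2 site was close to that of all regions. Within 100 bp of the summit, 5.86% of members (247) held TCAAGTG or TTAAGTG on either strand, beside 6.02% of all autosomal pooled regions. The share was 4.58% in untranslated exon, 5.31% in promoter, 5.98% in intron and 7.40% in intergenic regions. Windows of the same length at every 200th coding base held one in 4.62% of cases. Those of promoter windows did in 4.31%, untranslated exons in 3.88%, introns in 4.11% and intergenic DNA in 4.57%. No test was made of these shares.

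Over the 1000 strongest as a whole, the share with a site was the same in members and in all regions, but not by rank range. Of the 90 members among the 1000 strongest, 7 (7.78%) had a site, and so had 7.78% of all autosomal regions among the 1000 strongest. The 7 were all at ranks 501 to 1000, where the share was 9.09% in members and 5.30% in the other autosomal regions. At ranks 286 to 500 it was 0% of 12 members against 6.45%. In the thresholded list the 1 member had none, against 12.7% of the other autosomal peaks. None of the 20 strongest members had a site. The 3 among the 50 strongest were in *sel-11*, a ubiquitin ligase gene of the endoplasmic reticulum (pooled signal 25.6, rank 565), *aat-5*, an amino acid transporter gene (24.7, rank 632), and *tim-1*, the Timeless homologue (24.7, rank 633). In replicate 1 they had 10.1, 2.56 and 3.75 and in replicate 2 they had 14.9, 19.7 and 21.8. *sel-11* was thus nearest to even across the replicates, at ranks 920 and 1633, and the *aat-5* and *tim-1* regions ranked 27997 and 15578 in replicate 1.

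Short non-coding RNA genes and repeated sequence touched few members. Summits within 200 bp of a tRNA, snRNA, snoRNA or rRNA gene were 0.736% (31) of members, against 1.99% of promoter, 2.02% of intergenic, 2.61% of intron and 1.04% of untranslated exon regions. Windows with a second copy in the genome were 2.18% (92) of members, against 3.88%, 4.91%, 4.35% and 1.67% of the same classes.

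Genes with a coding exon region had more coding sequence than the rest. Of 15818 autosomal protein-coding genes with coding bases outside promoter windows, 20.8% (3287) held at least 1 member: 2648 held 1, 479 held 2 and 160 held 3 or more. The median length of such coding sequence was 1368 bp in these genes and 716 bp in the rest. With genes in 4 equal groups from shortest to longest, the share with a region was 4.42, 13.7, 20.8 and 44.2%, and the number of regions per kb was 0.191, 0.231, 0.229 and 0.266. The share of genes with a region thus followed length far more than the regions per kb did.

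The 7 genes with 8 or more regions each had several kb of coding sequence. *vab-10*, which encodes spectraplakins that link the cytoskeleton to attachment structures, held 14 over 23.3 kb of coding sequence, with pooled signals of 9.46 to 24.9 and a best rank of 624. *ttn-1*, the titin gene, held 9 over 54.9 kb, or 0.164 per kb against 0.248 over all genes, and its best rank was 5361. *unc-44*, the ankyrin gene, held 9 (best rank 1044), *unc-89*, the obscurin gene of muscle, 8 (best rank 2112), and *unc-68*, the ryanodine receptor gene, 8 (best rank 2858). The myotactin gene *let-805* also held 8 (best rank 744), as did *mlt-11*, which is needed for molting, over only 9.26 kb. At 0.864 regions per kb, *mlt-11* was the densest of the 7, and its best rank was 660. Of the 14 regions in *vab-10*, 13 had a replicate 2 summit and 5 had both.

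Counts of genes in lists are read against all autosomal genes, of which 20.8% held a member and 0.556% (88) held one among the 1000 strongest. Of 9 genes of pharyngeal muscle, the group best known for regulation by CEH-22, 4 (44.4%) held a member and none was among the 1000 strongest. The 4 were *myo-1*, a pharyngeal myosin (signal 15.0, rank 4507), *myo-5*, another myosin gene (14.8), *tnt-4*, a troponin T gene (11.0), and *gar-3*, a muscarinic receptor gene (10.9). Only the best *myo-5* region had a summit of both replicates within 200 bp (rank 6246 in replicate 1 and 13352 in replicate 2). The *myo-1* region had only a replicate 1 summit (signal 2.50, rank 28946). Those in *tnt-4* (rank 1044) and *gar-3* (rank 9789) had only a replicate 2 summit. Of 21 body wall muscle genes 12 (57.1%) held a member, 43 regions in all, and the median rank of each gene's best region was 2627. These lists hold long genes: the median coding length was 2735 bp for body wall and 1395 bp for pharyngeal muscle, against 807 bp over all genes. Regions per kb were 0.268 for body wall muscle, 0.323 for pharyngeal muscle and 0.248 over all genes. Only *unc-54* among the body wall muscle genes was in the 1000 strongest (rank 469, with 7.81 in replicate 1 and 20.3 in replicate 2). None of 10 genes for pharyngeal transcription factors held one, with a median of 836 coding bp.

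Of the 18 gene lists, that of large cytoskeletal and adhesion genes had most genes among the 1000 strongest regions. Of 20 such genes 18 held a member, 76 regions at 0.324 per kb beside 0.248 over all genes. Their median coding length was 8587 bp against 807 bp over all genes, and 4 were in the 1000 strongest: *cdh-4*, a Fat-like cadherin (rank 559), *vab-10* (624), *let-805*, myotactin (744), and *cdh-10*, a cadherin (804). Basement membrane genes had a median of 5142 coding bp and 0.321 regions per kb. Of 12 such genes 9 (75.0%) held a member, led by the laminin gene *epi-1* (rank 569). Of 144 cuticle collagen genes 43 (29.9%) did, at 0.447 regions per kb, led by *col-97* (rank 557). A gene with many regions has more chances of a high best rank, so these ranks are not comparable between lists of long and short genes.

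The remaining lists had at most 1 gene each among the 1000 strongest. Of 245 nuclear hormone receptor genes 47 held a member, led by *nhr-60* (rank 635), and of 22 chaperone genes 11 did, led by *hsp-1* (rank 503). Members were found in 8 of 62 genes of the homeobox list. Its best rank, 1006, was in *cfi-1*, which encodes an ARID protein rather than a homeodomain one, and the next was in *unc-42* (rank 2145). Members were also found in 6 of 44 ribosomal protein genes (best rank 4527, *ubl-1*) and 9 of 35 translation factor genes (best rank 2110). Members lay in 4 of 12 tubulin genes (best rank 2180) and 1 of 9 intestinal genes (rank 15476). They were in 7 of 11 epidermal genes (best rank 3573, *noah-1*), 8 of 19 neuronal genes (best rank 1638, *unc-17*), 1 of 6 contractile genes shared between muscles, the 1 autosomal vitellogenin gene and 0 of 11 histone genes. No list had a thresholded coding exon region, and over all genes there was 1. The median best rank over all genes with a region was 9105. Regions per kb are read against 0.248 over all genes. They were 0.515 in ribosomal protein genes, with 6 regions and a median of 227 coding bp. They were 0.502 in chaperone, 0.403 in epidermal, 0.343 in tubulin and 0.337 in translation factor genes. The rest had 0.249 (neuronal), 0.212 (homeobox), 0.209 (nuclear hormone receptor), 0.206 (vitellogenin), 0.175 (shared contractile), 0.0991 (intestinal) and 0 (histone).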

How the data were processed

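CEH-22 ChIP-seq of whole late embryos had 2 biological replicates, with the labels' numbers, in 1 group. Per the deposited file listing, each relaxed list was made from the alignments of a replicate, or of both together, with those of a control. IDR, which compares ranked lists, then gave the thresholded list. Regions carry a signal value, a score deposited by the authors on a scale not stated. The peak caller and the aligner (and their versions) are not named in the sources used here. Read depth is unknown, so intervals (exact binomial, 95%) cover counting over regions only. The ce10 lists and the other columns were not used.

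Coordinates are 1-based on ce11 (WBcel235), with gene models of Ensembl release 115 and RefSeq sequence. Each autosomal summit was placed in 1 class, in the order promoter, coding exon, untranslated exon, intron and intergenic, from per-base masks. Replicate regions were matched by the nearest summit within 200 bp. Further copies were sought with BLAST+ 2.17.0 and all else was computed in Python 3.11.15 with pandas 2.3.3 and scipy 1.17.1. The classification and matching were tested on simulated regions. With 1 group there is no contrast, and no p-value is given. Replicates are labelled biological, with nothing said of separate cultures.

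The members, gene lists and alternatives were chosen with earlier results of these data known. Named genes are those with a thresholded member, the 20 strongest members, the 5 below the threshold, the 5 strongest among each replicate's leading regions (defined above), the 5 genes with most members and those tied with them, each list's strongest (up to 3 among the 1000 strongest) and NK-2 sites among the 50 strongest members. Further genes from the lists and of replicate 2, such as *tnt-4* and *gar-3*, were named with their values known. The alternatives covered other promoter windows, transcript starts, coding in every transcript, region midpoints, matching distances, list lengths, site definitions and each replicate alone.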

Additional observations from a re-analysis of the deposited data

How the results depend on the processing

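Of 39 alternative values, 22 stayed close to those reported, among them every median rank and density under the other promoter windows, transcript starts and coding in every transcript. The midpoint values, also among the 22, are no check. Midpoints gave the same 4214 members, and in the named members the summit is the midpoint of the region, so these values could not move. The share of members in the thresholded list (0.0237%) became 0% with a promoter window of 2000 bp upstream and 500 bp downstream and 0% against the upper 49.8% of the thresholded peaks. It became 2.14% against the 1000 strongest. There is no thresholded list of 1 replicate, so each replicate's own coding exon regions were set against its leading regions. That share, of other regions than the members, was 0.0494% in replicate 1 and 0.312% in replicate 2. The median rank, 50.7% of the way down the pooled list, ranged from 46.9 to 49.3% with 1 replicate, and the density (248 per Mb) from 358 to 377, since those lists are longer. The share with both replicates (30.8%) was 19.4% within 100 bp, 43.5% within 500 bp, 38.6% by overlap of at least 1 bp, and 6.24% among the 10000 strongest of each replicate, where all autosomal regions had 9.31%. The NK-2 share (5.86%) was 3.16% within 50 bp, 8.33% within 150 bp, 4.82% with TCAAGTG alone (4.40% of all autosomal regions) and 13.1% with CAAGTG (11.3%). The site share in 1 replicate's own list, an alternative that was chosen after seeing the data, ranged from 4.68 to 5.96%. With promoter regions counted, the median best rank of list genes moved from 37.4 to 27.0% of the list. Apart from wider or narrower windows and longer lists, the cause was not tested. No paired analysis was possible because there is 1 group. Depth is unknown, and 2 replicates limit how far their difference can be described.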
